A study of Mus musculus with 12 samples.

Results

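The genes described here are 9 named neighbours on mouse chromosome 5: Guf1, Gnpda2, Kctd8, Yipf7, Cox7b2, Chrna9, Commd8, Atp10d and Nfxl1. They are 9 of the 24421 gene symbols in the count tables. They were chosen by symbol on measured values, namely the near absence of Guf1 and Gnpda2 counts from one wild-type group, so every contrast with that group is a description and carries no test. RNA-seq profiled 12 libraries from embryonic stem cells (ESCs) of the mouse that are androgenetic and haploid, with a single, paternally derived chromosome set, on a C57BL/6 background. The study compared cells in which Etl4 had been knocked out (KO) with wild-type (WT) cells. Of the parental line OdG there were 2 WT libraries and a pair of libraries (n = 2) for each of 2 Etl4 KO lines, called line 1 and line 2 here. The parental line EG1 gave 3 WT libraries and 3 libraries of Etl4 KO cells. The labels carry no other allele or agent for any group, and do not say how the knockout was made or whether a KO line is a single clone.

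Guf1 encodes a mitochondrial GTPase related to the bacterial translation factor LepA, which acts on ribosomes during protein synthesis. Gnpda2 encodes a glucosamine-6-phosphate deaminase, an enzyme that turns an amino sugar phosphate back into fructose-6-phosphate and so runs against the entry step of hexosamine synthesis. Its paralogue Gnpda1 encodes an enzyme with the same activity. Kctd8 encodes an auxiliary subunit of GABA-B receptors, Chrna9 a nicotinic acetylcholine receptor subunit known from inner ear hair cells, Yipf7 a Yip-family membrane protein, and Cox7b2 a testis-enriched relative of a cytochrome c oxidase subunit. Commd8 encodes a COMM-domain protein of the Commander complex, Nfxl1 a zinc finger protein, and Atp10d belongs to the lipid flippase family.

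In RefSeq on GRCm38.p6 (mm10), Guf1 lies at chr5:69556910-69574652 on the plus strand and Gnpda2 at chr5:69574998-69592332 on the minus strand. The 2 genes run towards each other and their 3′ ends are 345 bases apart. In the GENCODE M21 annotation their transcribed spans overlap by 2866 bases. Whether counting used strand is not given in the sources used here, so reads from that overlap cannot be assigned to one gene with certainty. Kctd8 and Yipf7 lie to the left, with their right-hand ends 215 kb and 14 kb before the start of Guf1. To the right, the left-hand ends of Cox7b2, Commd8, Atp10d and Nfxl1 lie 1886, 2600, 2646 and 2956 kb beyond it. Chrna9 is the farthest, with its right-hand end 3579 kb to the left. RefSeq classes Atp10d as a transcribed pseudogene and the other 8 as protein coding.

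Promoter windows from RefSeq (250 bases before to 50 after the start, GRCm38.p6) matched 6 of the 9 genes. The following 4 are shown because they set a gene nearly absent from OdG WT cells (Gnpda2) and a gene with 0 counts there (Cox7b2) beside neighbours well detected in the same cells (Commd8 and Nfxl1). All are on the minus strand and are written in the direction of transcription. Capitals mark matches on either strand to CATGCGCA (part of the NRF1 motif), CCGGAAG (an ETS motif), CCAAT (the CCAAT box) and GGGCGG (the GC box).
Gnpda2 chr5:69592255-69592554, minus strand: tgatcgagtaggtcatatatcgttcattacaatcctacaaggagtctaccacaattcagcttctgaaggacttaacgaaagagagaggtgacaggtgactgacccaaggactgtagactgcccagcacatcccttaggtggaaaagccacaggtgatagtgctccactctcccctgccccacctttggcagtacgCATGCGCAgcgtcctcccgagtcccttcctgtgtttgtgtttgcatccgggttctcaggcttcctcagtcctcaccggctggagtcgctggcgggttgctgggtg
Cox7b2 chr5:71548156-71548455, minus strand: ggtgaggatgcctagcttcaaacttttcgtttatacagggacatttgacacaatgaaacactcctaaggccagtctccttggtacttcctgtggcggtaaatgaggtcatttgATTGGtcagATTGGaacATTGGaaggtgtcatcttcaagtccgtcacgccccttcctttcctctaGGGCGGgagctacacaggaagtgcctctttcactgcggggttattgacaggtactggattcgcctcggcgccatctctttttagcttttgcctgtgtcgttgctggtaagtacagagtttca
Commd8 chr5:72168140-72168439, minus strand: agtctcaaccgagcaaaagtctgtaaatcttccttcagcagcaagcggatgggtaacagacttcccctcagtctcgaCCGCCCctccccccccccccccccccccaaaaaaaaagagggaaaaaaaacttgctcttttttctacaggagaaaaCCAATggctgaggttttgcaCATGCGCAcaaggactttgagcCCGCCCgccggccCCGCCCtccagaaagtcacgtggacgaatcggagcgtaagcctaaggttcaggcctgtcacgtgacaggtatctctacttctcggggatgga
Nfxl1 chr5:72559596-72559895, minus strand: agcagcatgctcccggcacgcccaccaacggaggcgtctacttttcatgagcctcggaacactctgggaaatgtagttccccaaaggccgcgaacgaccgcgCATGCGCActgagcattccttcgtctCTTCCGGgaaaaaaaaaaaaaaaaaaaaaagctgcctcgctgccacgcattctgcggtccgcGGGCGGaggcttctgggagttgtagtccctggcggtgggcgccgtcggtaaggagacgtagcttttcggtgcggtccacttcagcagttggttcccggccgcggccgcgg
CATGCGCA was found once each in the windows of Gnpda2, Commd8 and Nfxl1, and in 2.12% of all 32851 promoter windows. It was therefore present beside both a nearly absent gene and well-detected ones. The Cox7b2 window held CCAAT 3 times and GGGCGG once, and the Commd8 window held CCAAT once and GGGCGG 3 times. These motifs are common, at 37.4% and 35.7% of all windows. CCGGAAG, in 8.86% of all windows, was found in that of Nfxl1 among these 4. The windows held 11 (Gnpda2), 10 (Cox7b2), 15 (Commd8) and 31 (Nfxl1) CpG dinucleotides, against a median of 7 over all windows. A match is only a match of letters.

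Library totals ran from 16110028 to 19706599 counts. Levels are given as counts or as CPM (counts after bringing all libraries to one total), scaled within each table, and tests as log2 fold changes ± standard error (SE) with Benjamini-Hochberg adjusted p from edgeR's quasi-likelihood test over all genes. Nothing in the labels says that replicates were separate cultures, so p-values measure how much these libraries varied, and that variation may be technical. Etl4 itself ranged from 206 to 210 CPM in OdG WT, 97.2 to 101 in line 1, 110 to 114 in line 2, 260 to 265 in EG1 WT and 131 to 134 in EG1 KO. All 12 ESC markers reached at least 5 CPM in every library. The summed level of 12 fibroblast markers, for the feeder cells such cultures may hold, was 54.7 to 57.8 CPM in OdG WT, 44.7 to 48.1 in line 1, 22.5 to 23.6 in line 2, 12.5 to 14.8 in EG1 WT and 14.5 to 17.0 in EG1 KO. The number of these markers at 0 throughout a group was 1 in OdG WT, 3 in line 1, 2 in line 2, 3 in EG1 WT and 5 in EG1 KO, and among them were S100a4 in OdG WT, line 2 and EG1 KO, and Postn and Lum in line 1, EG1 WT and EG1 KO. For 10 primitive endoderm markers the summed level was 979 to 1011 CPM in OdG WT, 850 to 857 in line 1, 561 to 572 in line 2, 939 to 947 in EG1 WT and 994 to 1034 in EG1 KO, and 0 of the 10 were at 0 throughout a group. The part of these markers in the results below was not tested.

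Guf1 was nearly absent from the OdG WT libraries and well expressed in all the others. Its counts were 3 and 3 in OdG WT, 881 and 736 in line 1, 761 and 757 in line 2, 689, 728 and 806 in EG1 WT, and 587, 684 and 633 in EG1 KO. The OdG WT counts stood far below every other library, and no other group came near them. In bulk RNA, fewer cells with a transcript and less of it per cell cannot be told apart. The mean level was 0.176 ± 0.003 CPM (SD, n = 2) in OdG WT, 47.3 ± 0.845 (n = 2) in line 1, 44.5 ± 2.75 (n = 2) in line 2, 40.1 ± 1.14 (n = 3) in EG1 WT and 36.3 ± 2.70 (n = 3) in EG1 KO. From the summed counts, the ratio to OdG WT was 269 in line 1 (95% counting interval 123 to 735), 252 in line 2 (116 to 688), 231 in EG1 WT (106 to 630) and 209 in EG1 KO (96.0 to 571). These intervals cover counting error only. EG1 and OdG libraries come from separate tables, so parental line and table cannot be told apart.

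Gnpda2 followed the same pattern. Its counts were 0 and 1 in OdG WT, 309 and 289 in line 1, 357 and 414 in line 2, 281, 325 and 299 in EG1 WT, and 231, 257 and 275 in EG1 KO. A single count in 2 OdG WT libraries therefore stood against at least 231 in each of the other 10. The mean level was 0.0297 ± 0.042 CPM (SD, n = 2) in OdG WT, 17.6 ± 1.09 (n = 2) in line 1, 22.5 ± 1.05 (n = 2) in line 2, 16.4 ± 1.63 (n = 3) in EG1 WT and 14.6 ± 1.37 (n = 3) in EG1 KO. With 1 count below the line, the ratio to OdG WT was 597 in line 1 with a 95% counting interval from 107 to 23634, and the other 3 ratios ran from 503 to 769. The lower end of the interval was 90.1 or more in all 4 groups.

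**Figure D1:**
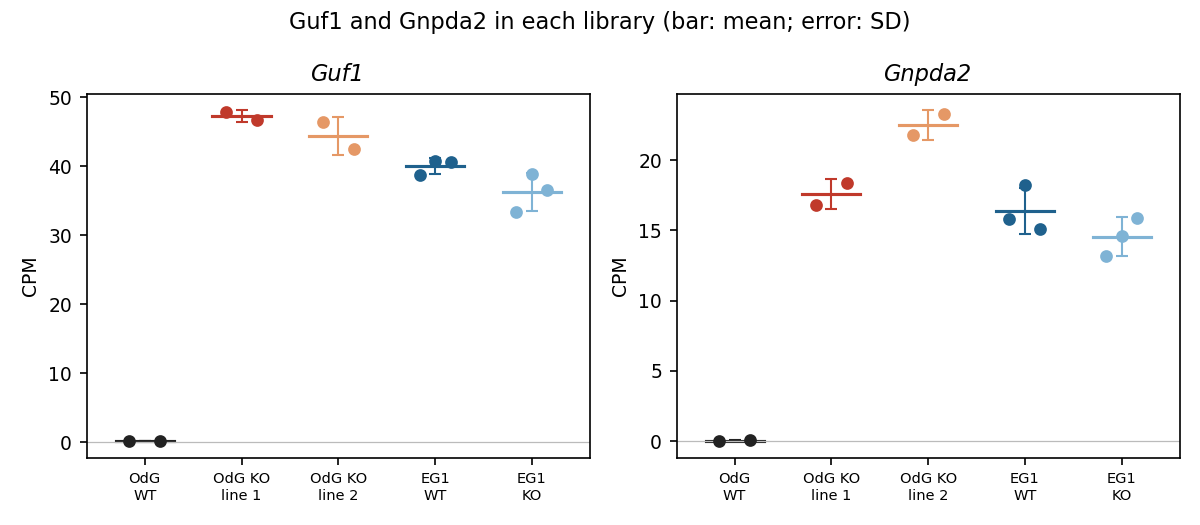
Level of Guf1 (left) and Gnpda2 (right) in CPM on a linear axis, with 1 point per library, a bar for the group mean and an error bar of 1 SD (n = 2 for OdG groups, n = 3 for EG1 groups). The OdG WT points lie at or near 0, while the other 4 groups have means of 36.3 to 47.3 CPM for Guf1 and 14.6 to 22.5 CPM for Gnpda2.

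Outside OdG WT, the Guf1 level was ordered line 1, line 2, EG1 WT and EG1 KO, and Gnpda2 was ordered line 2, line 1, EG1 WT and EG1 KO. For Guf1 the OdG KO lines did not differ by the test (log2 -0.09 ± 0.07 for line 2 against line 1, 95% interval -0.23 to 0.04, adjusted p = 0.32). The Guf1 libraries of line 2 (42.5 to 46.4 CPM) and EG1 WT (38.8 to 40.8 CPM) did not overlap, across tables scaled separately. For Gnpda2, line 1 (16.8 to 18.3 CPM) and EG1 WT (15.1 to 18.2 CPM) overlapped. Gnpda2 was higher in line 2 than in line 1 (log2 0.36 ± 0.10, adjusted p = 0.008), in both libraries. That call was lost with DESeq2 (adjusted p = 0.11), without line 1 replicate 1 (0.093) and without line 2 replicate 2 (0.091). The number of Gnpda2 counts per Guf1 count was 0.372 ± 0.030 (SD, n = 2) in line 1, 0.508 ± 0.055 (n = 2) in line 2, 0.408 ± 0.038 (n = 3) in EG1 WT and 0.401 ± 0.030 (n = 3) in EG1 KO. Per kilobase of GENCODE M21 exon, Guf1 stood at 13.8 CPM per kb against 6.36 for Gnpda2 in line 1, and at 11.7 against 5.92 in EG1 WT. The annotation that was counted is not known, and reads from the overlap of the 2 genes may be shared or dropped. Neither the count ratio nor the level per kilobase therefore ranks the pair with certainty.

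In the EG1 line, which does not share the near absence, the knockout and wild-type libraries overlapped for both genes. Guf1 ran from 38.8 to 40.8 CPM in EG1 WT and from 33.5 to 38.8 in EG1 KO, and the log2 difference was -0.14 ± 0.06 (95% interval -0.26 to -0.02, adjusted p = 0.16). Gnpda2 ran from 15.1 to 18.2 CPM in EG1 WT and from 13.2 to 15.9 in EG1 KO, with a log2 difference of -0.17 ± 0.09 (95% interval -0.35 to 0.01, adjusted p = 0.30). Of the 9 genes, 5 had enough counts to be tested in EG1, and 0 of these 5 passed edgeR's test, where 7.66% of all 14016 tested genes did (3.60% higher and 4.06% lower). At an unadjusted p under 0.05 there were 2, Guf1 and Nfxl1, and DESeq2 called 0. Against the OdG KO lines, both genes were lower in EG1 KO, by a log2 of -0.31 ± 0.06 for Guf1 (adjusted p = 1.5e-05) and -0.42 ± 0.08 for Gnpda2 (adjusted p = 6.4e-05). All 3 EG1 KO libraries were below all 4 OdG KO libraries for each. This contrast takes no OdG WT value, but the OdG WT libraries share its fit, and so its filter, scaling and estimate of spread. It called 67.9% of all genes tested.

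Kctd8, Yipf7, Cox7b2 and Chrna9 were at trace levels in every library. Cox7b2 had 0 and 0 counts in OdG WT, 10 and 6 in line 1, 29 and 32 in line 2, 8, 8 and 11 in EG1 WT, and 4, 17 and 11 in EG1 KO. Yipf7 had 0 and 0 in OdG WT, 6 and 8 in line 1, 8 and 7 in line 2, 2, 1 and 0 in EG1 WT, and 0, 1 and 1 in EG1 KO. A count of 0 over both OdG WT libraries allows up to 3 counts, or 0.0897 CPM by raw library totals. Set against that floor over the group, on raw totals, Cox7b2 was at least 5.11-fold higher in line 1, at least 19.9-fold in line 2, at least 5.46-fold in EG1 WT and at least 6.75-fold in EG1 KO. Yipf7 was at least 4.47-fold higher in line 1 and at least 4.89-fold in line 2. In both EG1 groups its summed count did not exceed the floor, and no ratio is given. These bounds allow for counting error in OdG WT only, not in the group set against it, so the true ratios may be lower.

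Kctd8 had 3 and 3 counts in OdG WT, 12 and 18 in line 1, 7 and 14 in line 2, 4, 3 and 2 in EG1 WT, and 1, 2 and 4 in EG1 KO. It was thus as low in EG1 cells as in OdG WT, with a ratio to OdG WT of 0.936 in EG1 WT (95% counting interval 0.297 to 3.19) and 4.99 in line 1 (2.05 to 14.7). Chrna9 had 1 and 3 counts in OdG WT, 9 and 9 in line 1, 13 and 13 in line 2, 4, 6 and 7 in EG1 WT, and 6, 10 and 8 in EG1 KO. Every other library had more Chrna9 counts than either OdG WT library, by 1 count at the narrowest.

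Between the KO lines, Cox7b2 was higher in line 2 than in line 1 in both libraries (log2 1.91 ± 0.40, adjusted p = 0.0012). It passed the filter on low counts only through line 2, the side where it is high. Its adjusted p is therefore given as a description. Kctd8 was lower in EG1 KO than in the OdG KO lines (log2 -2.37 ± 0.55, adjusted p = 0.00033). It passed the filter only through the OdG KO libraries, the side where it is high, so this too is a description. No other test of these 4 genes passed. For line 2 against line 1 the adjusted p was 0.41 for both Kctd8 and Chrna9. Kctd8 entered that contrast only through line 1 and Chrna9 only through line 2, the sides where their means are higher. For EG1 KO against the OdG KO lines the adjusted p was 0.22 for Cox7b2 and 0.34 for Chrna9. Chrna9 entered there only through line 2, so its values and those of Kctd8 are descriptions as well. Without EG1 KO replicate 2, the Cox7b2 difference between EG1 KO and the OdG KO lines became -1.04 with an adjusted p of 0.048. Yipf7 passed no filter on low counts.

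The stretch of 2815 kb between Kctd8 and Commd8 holds 8 genes of the tables: Yipf7, Guf1, Gnpda2, Gabrg1, Gabra2, Cox7b2, Gabra4 and Gabrb1, where the Gab genes encode GABA-A receptor subunits. All 8 together had 7 counts in the 2 OdG WT libraries, of which 6 were Guf1 and 1 was Gnpda2, and the other 6 genes were at 0 in both. Summed, those 6 genes had 23 and 16 counts in line 1, 44 and 51 in line 2, 11, 11 and 14 in EG1 WT, and 9, 21 and 14 in EG1 KO. Against the floor of 3 counts this was at least 12.5-fold higher in line 1, at least 31.0-fold in line 2, at least 7.28-fold in EG1 WT and at least 9.28-fold in EG1 KO. These bounds too leave out the counting error of the higher group. The limits of the stretch were chosen after its values were seen. Cox7b2 gave 16 of 39 of these counts in line 1, 61 of 95 in line 2, 27 of 36 in EG1 WT and 32 of 44 in EG1 KO, so the sums in part repeat its values. Gabra2 was at 0 in all 12 libraries.

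**Figure D2:**
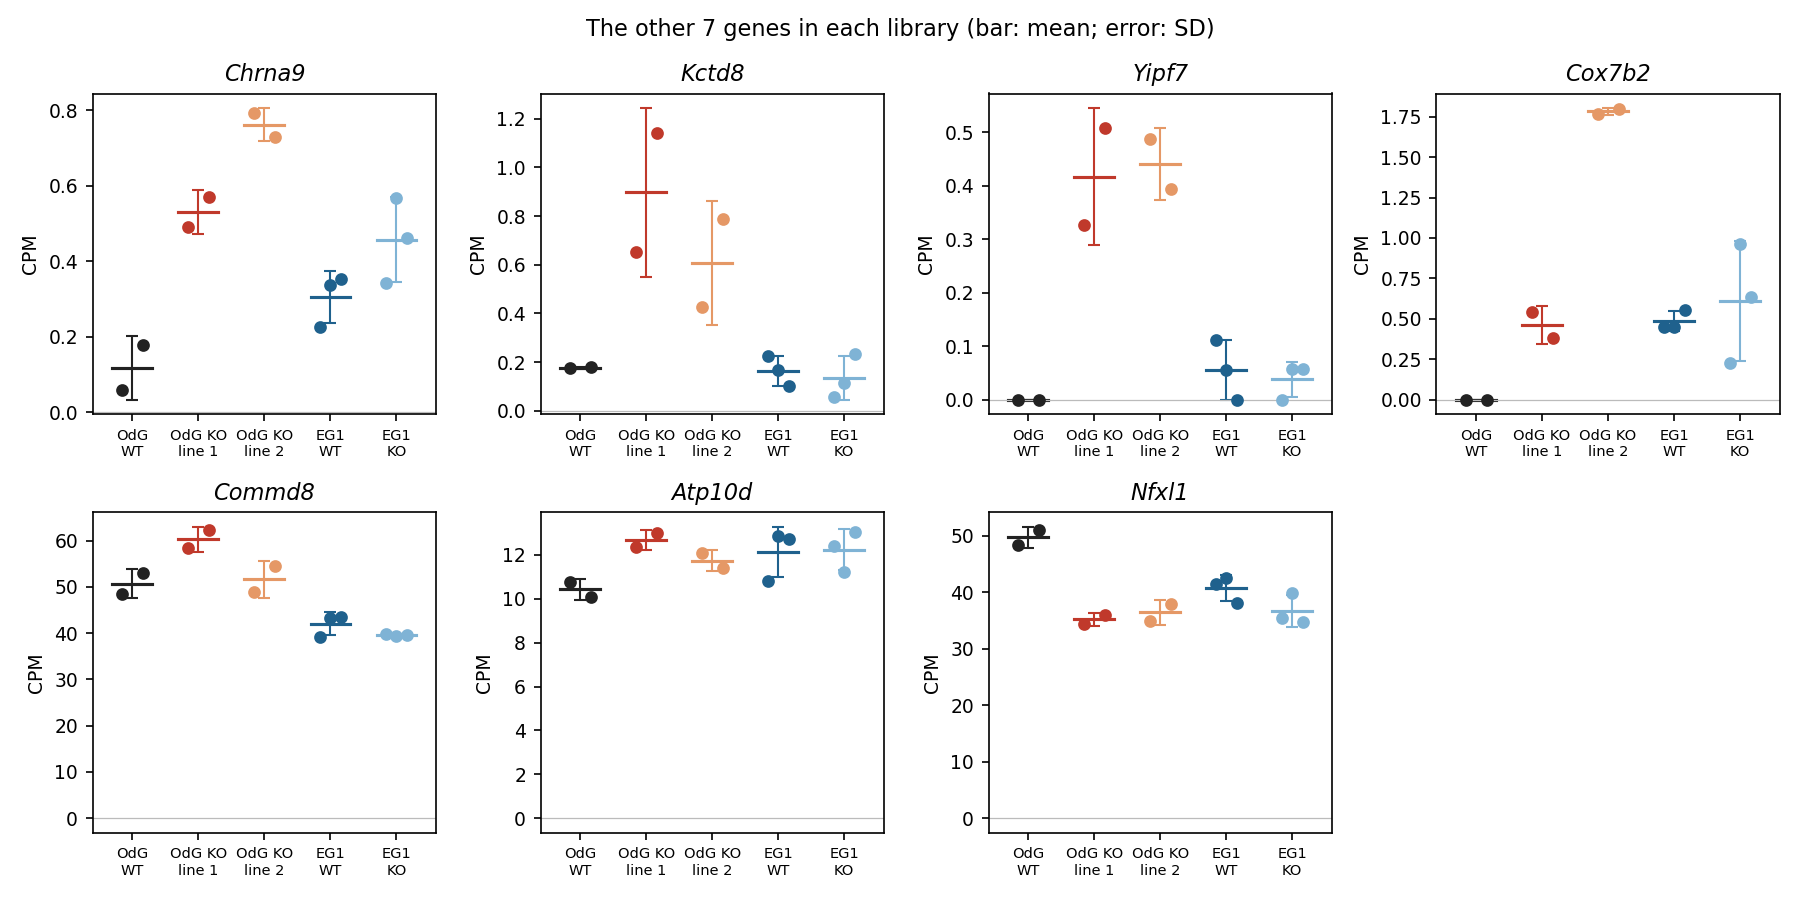
Level of the other 7 genes in CPM on linear axes that differ between panels, with 1 point per library, a bar for the group mean and an error bar of 1 SD (n = 2 for OdG groups, n = 3 for EG1 groups). Yipf7 and Cox7b2 are at 0 in OdG WT, Commd8 and Nfxl1 are near 50 CPM in OdG WT (50.7 and 49.8), and Nfxl1 is the gene whose OdG WT points lie above all others.

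Commd8, Atp10d and Nfxl1, at the right-hand end, were all well detected in OdG WT. Commd8 had 836 and 891 counts in OdG WT, 1073 and 980 in line 1, 800 and 970 in line 2, 697, 773 and 863 in EG1 WT, and 700, 694 and 686 in EG1 KO. In CPM, line 1 was above OdG WT (60.3 ± 2.72 against 50.7 ± 3.15, SD, n = 2 each), line 2 overlapped it (51.6 ± 4.03, n = 2), and EG1 was below it (42.0 ± 2.44 in WT and 39.7 ± 0.248 in KO, n = 3 each). Commd8 was lower in line 2 than in line 1 (log2 -0.22 ± 0.07, adjusted p = 0.014). That call was lost with DESeq2 (adjusted p = 0.076), without line 1 replicate 2 (0.13) and without line 2 replicate 1 (0.19). It was also lower in EG1 KO than in the OdG KO lines (log2 -0.46 ± 0.05, adjusted p = 6.5e-09), in all libraries.

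Nfxl1 was lower outside OdG WT in both OdG KO lines and in EG1. It had 836 and 861 counts in OdG WT, 632 and 568 in line 1, 572 and 677 in line 2, 738, 761 and 756 in EG1 WT, and 623, 704 and 601 in EG1 KO. Its mean level was 49.8 ± 1.89 CPM (SD, n = 2) in OdG WT and between 35.2 and 40.8 CPM in the other 4 groups, and both OdG WT libraries were above all 10 others. The log2 difference from OdG WT was -0.50 ± 0.07 in line 1, -0.45 ± 0.07 in line 2 and -0.27 ± 0.07 in EG1 WT. In EG1 the knockout differed from wild type by a log2 of -0.15 ± 0.06 (adjusted p = 0.16), which became -0.21 (adjusted p = 0.049) without EG1 KO replicate 2.

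Atp10d varied least of the 3, with group means from 10.4 to 12.7 CPM. It had 186 and 170 counts in OdG WT, 227 and 205 in line 1, 198 and 203 in line 2, 192, 230 and 252 in EG1 WT, and 218, 198 and 226 in EG1 KO. In CPM every other library was above both OdG WT libraries, with a log2 difference of 0.28 ± 0.11 for line 1, 0.17 ± 0.11 for line 2 and 0.24 ± 0.11 for EG1 WT. None of its 3 permitted tests passed: the log2 difference was -0.11 ± 0.11 for line 2 against line 1 (adjusted p = 0.45), 0.01 ± 0.10 for EG1 KO against EG1 WT (0.97) and 0.03 ± 0.09 for EG1 KO against the OdG KO lines (0.74).

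Over the 9 genes, every line 1 library was above both OdG WT libraries for 8 and below for 1, Nfxl1, where 36.8% of all tested genes lay wholly above and 38.6% wholly below. For line 2 the counts were 7 above and 1 below, with Commd8 overlapping, against 39.1% and 39.9% of tested genes. For EG1 WT against OdG WT they were 5 above and 2 below, against 39.0% and 39.6%. These counts follow from how the genes were picked, and the 3 contrasts share the OdG WT libraries. By the adjusted p, edgeR called 52.8%, 59.9% and 70.3% of tested genes in these 3 contrasts, and in the last of them 35.0% higher and 35.4% lower. In line 2 against line 1, 3 of 8 tested genes passed (Gnpda2 and Cox7b2 higher, Commd8 lower). Of all tested genes 37.8% did (18.6% higher and 19.2% lower). Cox7b2 and Chrna9 were among the 8 only through line 2, where they are high. Kctd8 was among the 8 only through line 1, where its mean is higher. That contrast takes no OdG WT value, but its fit holds the OdG WT libraries, so it is not independent of them. In EG1 KO against the OdG KO lines, 4 of 8 passed (Guf1, Gnpda2, Kctd8 and Commd8), all lower in EG1 KO. Kctd8 and Chrna9 were among the 8 only through the OdG KO libraries. Of all tested genes 33.6% were called lower and 34.2% higher. The fit of this contrast holds the OdG WT libraries too. For line 2 against line 1, the share that passed is near that over all genes, but it includes genes that entered only through their high side.

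Among the 63 other genes placed within 5 Mb on either side, the 38 tested in OdG showed shifts of both signs and none of the size of Guf1 or Gnpda2. The nearest tested neighbours outside the 9 were Atp8a1, a flippase gene 1.71 Mb to the left, and Tec, a tyrosine kinase gene 3.16 Mb to the right. Atp8a1 was at 14.5 CPM in OdG WT, 13.9 in line 1 (log2 -0.07 ± 0.10, adjusted p = 0.61) and 21.6 in line 2 (log2 0.57 ± 0.09, adjusted p = 5.1e-05). Tec fell in line 1 (log2 -1.46 ± 0.29, adjusted p = 0.00036) and in line 2 (log2 -0.78 ± 0.26, adjusted p = 0.016). The line 2 call for Tec was lost with DESeq2 (adjusted p = 0.17) and when OdG WT replicate 2 (0.14) or either library of line 2 (0.060 and 0.084) was left out. Thus a gene on each side was well above 0 in OdG WT.

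In that window 24 of 38 genes passed in line 1 against OdG WT (13 higher, 11 lower) and 28 of 38 in line 2 (17 higher, 11 lower), where 52.8% and 59.9% of all tested genes did. The fall in Fam114a1, at log2 -1.62 ± 0.14 in line 1 (adjusted p = 3.8e-08) and -2.75 ± 0.16 in line 2 (adjusted p = 1.8e-10), was the largest downward. Uchl1, a neuronal ubiquitin hydrolase gene, rose in line 2 from 32.7 ± 3.22 to 76.4 ± 5.70 CPM (SD, n = 2 each, log2 1.23 ± 0.07, adjusted p = 1.1e-10). Sgcb, a sarcoglycan gene, rose in line 1 (log2 1.02 ± 0.18, adjusted p = 0.00016). The median log2 difference of the window was 0.05 in line 1 and 0.03 in line 2, beside -0.01 over all genes in each. Between the KO lines 24 of 38 window genes passed, beside 37.8% of all tested genes, and this fell to 13 with DESeq2. Over all genes DESeq2 also called fewer between the KO lines, 3237 beside 5454 by edgeR. In line 1 against OdG WT, DESeq2 called 15 window genes. Over all genes it called 2962 higher and 2421 lower there, where edgeR called 3859 and 3757. In EG1, 4 of 37 passed, beside 7.66% of all tested genes. Limch1 (log2 -0.59 ± 0.11, adjusted p = 0.00067), Wdr19, a cilium gene (log2 -0.35 ± 0.08, adjusted p = 0.0043), and C330024D21Rik (log2 -0.82 ± 0.19, adjusted p = 0.0051) were lower and Ociad2 (log2 0.44 ± 0.12, adjusted p = 0.024) was higher. Without EG1 WT replicate 2 the count was 2, with an adjusted p of 0.051 for C330024D21Rik and 0.060 for Ociad2. Ociad2 was also lost with DESeq2 (0.11) and on leaving out any other EG1 library except KO replicate 1.

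**Figure D3:**
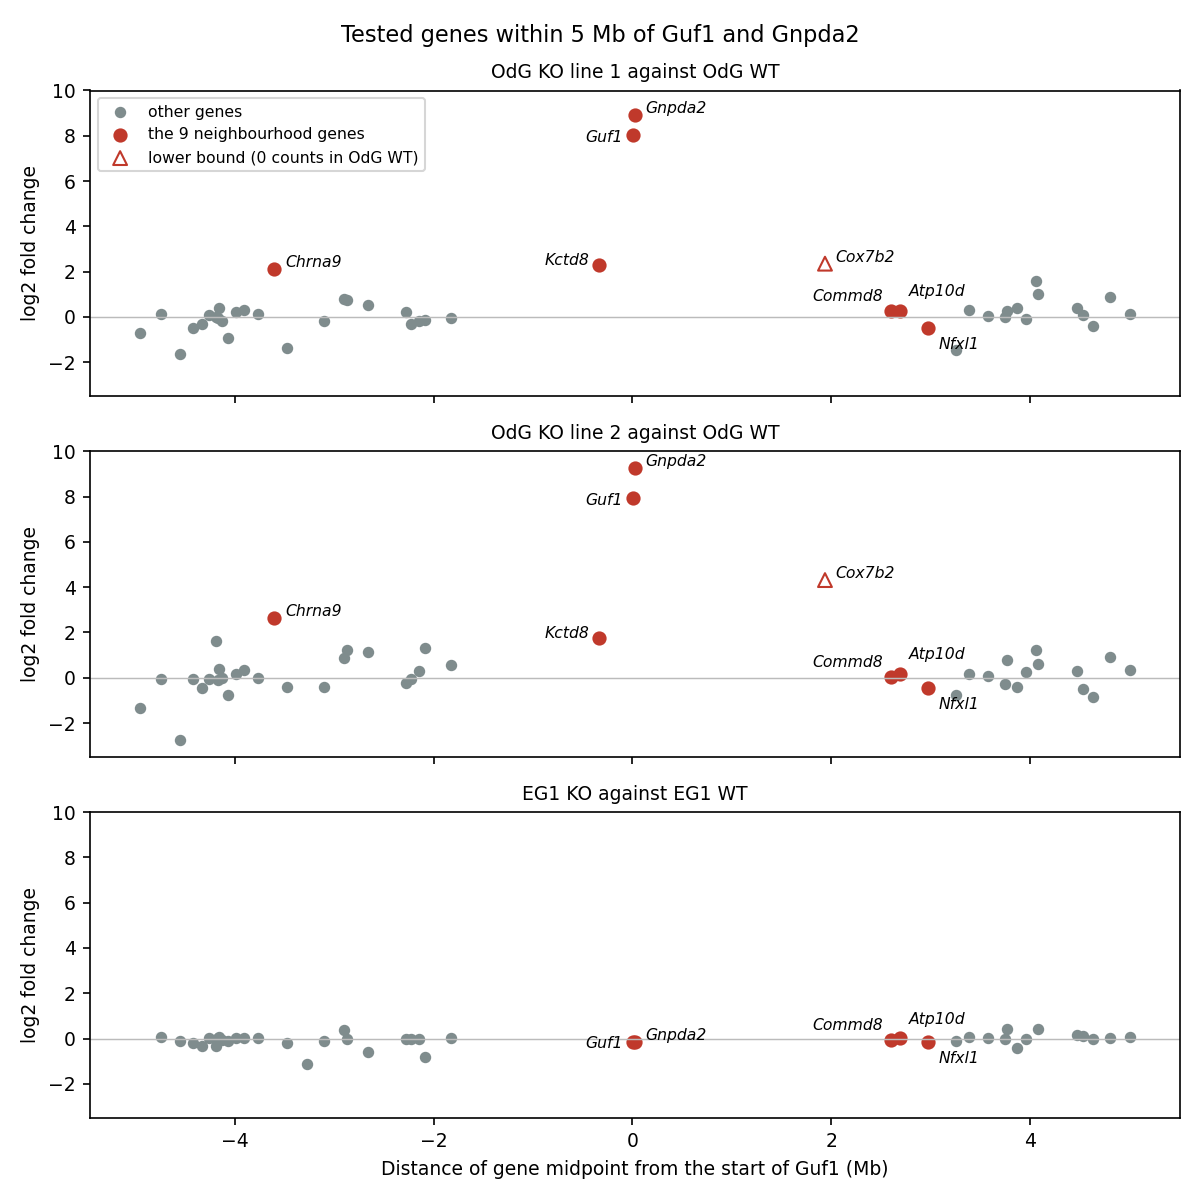
Log2 fold change (y axis, linear) of each tested gene within 5 Mb of Guf1 and Gnpda2 against the distance of its midpoint from the start of Guf1 in Mb (x axis), for line 1 and line 2 against OdG WT and for EG1 KO against EG1 WT. Red points are the 9 neighbourhood genes where tested, the open triangle is Cox7b2 at its lower bound of 5.11-fold (line 1) and 19.9-fold (line 2), and grey points are other genes. The lower bound allows for counting error in OdG WT only. Guf1 and Gnpda2 stand far above the rest in the upper panels and near 0 in the lowest.

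Among 27 other genes of mitochondrial translation, the process in which Guf1 acts, 12 rose and 0 fell in line 1 against OdG WT, and 15 rose and 0 fell in line 2. Of all tested genes, edgeR called 26.8% and 30.0% higher and 26.1% and 29.8% lower. Tufm, the mitochondrial elongation factor Tu, rose by a log2 of 0.37 ± 0.04 in line 1 (adjusted p = 1e-06) and 0.42 ± 0.04 in line 2 (adjusted p = 1.4e-07). Gfm1, the elongation factor G, rose by 0.40 ± 0.05 (adjusted p = 1e-06) and 0.50 ± 0.04 (adjusted p = 3.4e-08). Lrpprc, which binds mitochondrial mRNAs, and Tsfm, the elongation factor Ts, also rose in both lines. The list's median log2 difference was 0.19 in line 1 and 0.23 in line 2, beside -0.01 over all genes in each. In EG1 KO against EG1 WT, 0 of 27 passed edgeR's test, where only 7.66% of all tested genes did. An unadjusted p under 0.05 was reached by 2, and DESeq2 called 0. Whether the knockout effect differed between the parental lines was not tested. In EG1 WT against OdG WT, 15 of the 27 were higher and 3 lower, with a median log2 difference of 0.23, where 35.0% and 35.4% of all tested genes were called higher and lower. The 3 contrasts with OdG WT share its libraries.

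Among 21 other genes of amino sugar metabolism, the pathway of Gnpda2, 4 rose and 9 fell in line 1, and 6 rose and 11 fell in line 2. Of all tested genes, 26.8% were called higher and 26.1% lower in line 1, and 30.0% and 29.8% in line 2. Gfpt1, which makes glucosamine-6-phosphate from fructose-6-phosphate, fell by a log2 of 0.43 ± 0.05 in line 1 (adjusted p = 6.2e-07) and 0.77 ± 0.05 in line 2 (adjusted p = 3.2e-10). Ogt, the enzyme that puts N-acetylglucosamine on intracellular proteins, fell in line 1 (log2 -0.53 ± 0.03, adjusted p = 1.3e-10) and in line 2 (log2 -0.43 ± 0.03, adjusted p = 1.1e-09). Hexa, a lysosomal hexosaminidase gene, fell in both lines (log2 -0.65 ± 0.04, adjusted p = 2.2e-09, and -0.52 ± 0.04, adjusted p = 2e-08). Gne, which starts sialic acid synthesis, rose in both, with an adjusted p of 0.0015 and 0.0042. Without line 2 replicate 1 the line 2 value for Gne was no longer past the threshold. In EG1 KO 5 of 21 were lower and 0 higher, where 4.06% of all tested genes were called lower and 3.60% higher. Among the 5 was Chit1, a chitinase gene (11.8 against 20.3 CPM, log2 -0.79 ± 0.09, adjusted p = 7.5e-08). DESeq2 did not call all of the 5: its adjusted p was 0.11 for Nanp and 0.052 for Uap1.

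Gnpda1, the paralogue with the same activity as Gnpda2, differed little between the OdG groups. It was at 172 and 173 CPM in OdG WT, 164 to 178 in line 1, 178 to 185 in line 2, 152 to 155 in EG1 WT and 144 to 151 in EG1 KO. The log2 difference from OdG WT was -0.02 ± 0.04 in line 1 (adjusted p = 0.78) and 0.07 ± 0.04 in line 2 (adjusted p = 0.18), and EG1 KO differed from EG1 WT by -0.06 ± 0.04 (adjusted p = 0.35). Of 40 tested relatives of the 9 genes, such as other Commd, Kctd, Yipf and flippase genes, 9 rose and 8 fell in line 1, and 8 rose and 10 fell in line 2. Over all tested genes 26.8% were called higher and 26.1% lower in line 1, and 30.0% and 29.8% in line 2. Commd2 rose in both lines (log2 0.41 ± 0.09, adjusted p = 0.00072, and 0.40 ± 0.09, adjusted p = 0.00065). The flippase gene Atp9a fell in line 2 from 120.6 to 52.2 CPM (log2 -1.21 ± 0.05, adjusted p = 4.9e-13). In EG1, 2 of 41 passed, Atp11a and Commd10, beside 7.66% of all tested genes, and neither passed with DESeq2 (adjusted p = 0.070 and 0.081).

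**Figure D4:**
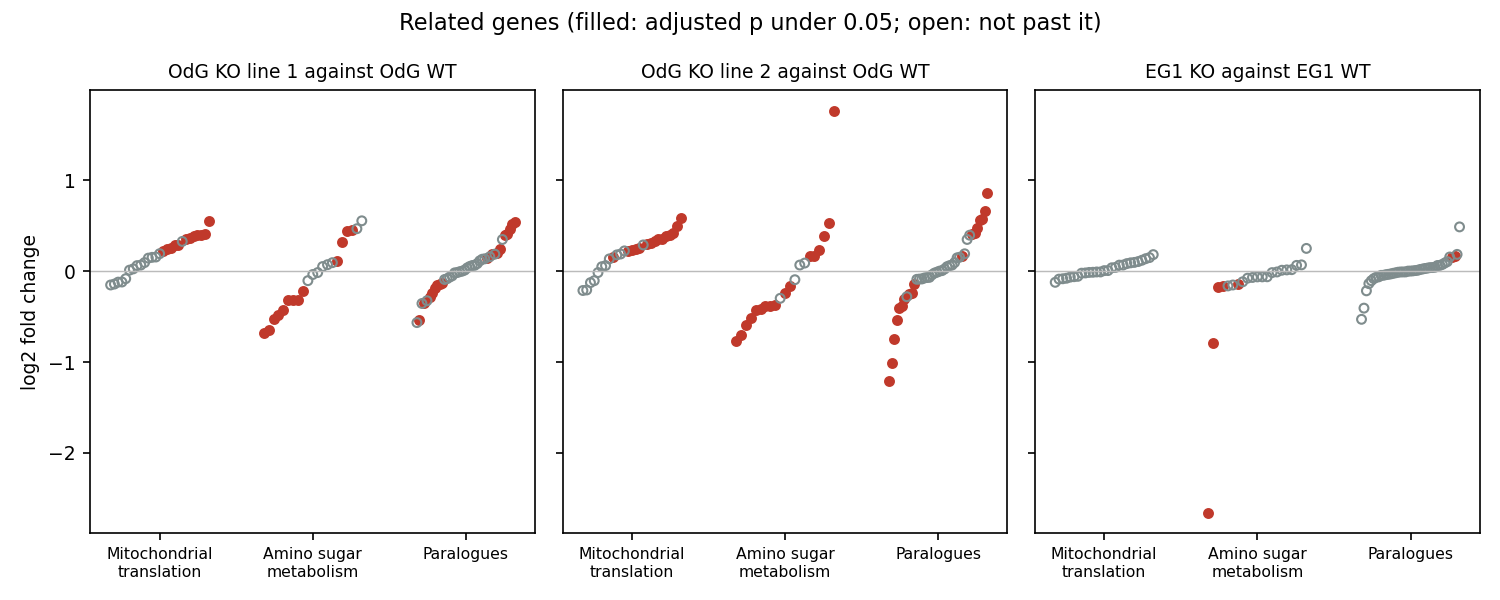
Log2 fold change (y axis, linear) of each tested gene of mitochondrial translation, amino sugar metabolism and the relatives of the 9 genes, in 3 contrasts, with genes ordered by value within each list. Filled points have an adjusted p under 0.05 and open points do not. The mitochondrial translation genes past the threshold all lie above 0 in both OdG panels (12 and 15 genes), and 0 pass in EG1. Of all tested genes 52.8% and 59.9% passed in the OdG contrasts and 7.66% in EG1.

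Near absence from one group, taken as at most 3 counts in each of its libraries and at least 5 CPM in every library outside it, was shown by 2 of the 24421 symbols for OdG WT, Guf1 and Gnpda2. For each of the other 4 groups 0 genes met it. The limit of 3 counts equals the Guf1 count in OdG WT, and the pair had been chosen for this near absence, so the tally restates the choice and supports nothing. Across the 12 libraries, the genes whose log2(CPM + 1) profile was most like the mean of Guf1 and Gnpda2, of 14969 ranked outside the 9, were Pnp (Pearson r = 0.991), Hsph1 (0.988), Dnaja1 (0.987), Sod2 (0.984), Mrpl15 (0.984) and Tdh (0.982). The libraries share their groups and tables, so r mainly reflects OdG WT against the rest, and 381 genes had an r above 0.9. These genes were lower in OdG WT without being absent: Pnp, a purine nucleoside phosphorylase gene, was at 54.1 ± 2.92 CPM (SD, n = 2) there and at 90.6 to 98.4 in the other groups. Hsph1, a heat shock protein gene, was at 293.8 ± 4.56 CPM there and at 487 to 511 elsewhere. Among the other neighbourhood genes, r was 0.744 for Chrna9, 0.691 for Atp10d, 0.675 for Cox7b2, 0.309 for Kctd8, -0.147 for Commd8 and -0.825 for Nfxl1.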

How the data were processed

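Messenger RNA of 12 libraries was sequenced after library preparation with the NEBNext Ultra RNA kit, per the labels' protocols. The mm10 build, HISAT2 2.1.0 and featureCounts 1.6.4 are named in the submitters' processing notes, as are CASAVA and DESeq2. The annotation, filters and strand setting were not given in the sources used here. What the authors deposited are 2 tables of raw counts, whole numbers for each gene symbol. Groups and replicate numbers come from the sample titles. Between replicates, chi-square divided by its degrees of freedom was 1.84 to 3.86, above sampling noise.

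Counts were fitted with edgeR 4.0.16 in R 4.3.3 (filterByExpr, TMM scaling, quasi-likelihood, 1 mean per group, two-sided tests, adjusted p under 0.05 called). Fits used the 6 OdG libraries (14413 genes), the 6 EG1 libraries (14016) or all 12 (14977, for contrasts between parental lines). The script was tested on simulated data. Alternatives were DESeq2 1.42.0, its size factors, no filter, a replicate block and leaving out each library. Count ratios have exact 95% intervals. Per-kilobase levels use GENCODE M21 exon lengths.

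The members and lists were chosen with earlier results of these data known. Besides the 9 genes, the text draws on the nearest tested neighbours, up to 4 called genes per direction by fold (window) or adjusted p (lists), Gnpda1, and the 6 most alike profiles. The values of 1 list gene are not reported here.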

Additional observations from a re-analysis of the deposited data

Results flagged for a closer look

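The 2 OdG KO lines share 1 wild-type control, so their difference in effect is line 2 against line 1, which edgeR's quasi-likelihood test called for 3 of the 9 genes. The log2 difference was 0.36 for Gnpda2 and 1.91 for Cox7b2, both higher in line 2, and -0.22 for Commd8, lower in line 2, in 2 of 2 libraries against 2 of 2 each. The adjusted p was 0.008, 0.0012 and 0.014. In this contrast 37.8% of all tested genes were called. The Cox7b2 call held under every alternative run, and those of Gnpda2 and Commd8 did not, as given above. In the main fit Cox7b2 passed the filter on low counts only through line 2, where it is high.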

How the results depend on the processing

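DESeq2 called fewer genes: 3237 for line 2 against line 1 (edgeR 5454) and 657 for EG1 KO against WT (1074). In line 1 against OdG WT it called 2962 genes higher and 2421 lower (edgeR 3859 and 3757). Its window counts were 15 for line 1 against OdG WT (24) and 13 between the KO lines (24). Leaving out 1 library moved the EG1 gene count between 638 (without WT replicate 1; 672 and 658 without WT replicate 2 or 3) and 1213, the EG1 window count between 2 and 4, and the window count between KO lines between 13 (without line 2 replicate 1) and 26. Raw totals moved the mean CPM of Guf1 to 0.179 in OdG WT and 46.3 in line 1, of Kctd8 in OdG WT to 0.179 and of Commd8 in EG1 KO to 39.4.

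Some log2 values changed sign when 1 library was left out, none past the threshold where tested. Ranges over the left-out libraries were -0.127 to 0.0025 (Atp8a1, positive without line 1 replicate 1) and -0.0707 to 0.042 (Gnpda1, likewise) in line 1 against OdG WT. For Commd8 in line 2 against OdG WT the range was -0.0522 to 0.107, negative without line 2 replicate 2 and, at -0.0324, without WT replicate 1. Nfxl1 in line 2 against line 1 ran from -0.0132 (without line 2 replicate 2) to 0.111. In EG1, Atp10d ran from -0.0660 (without WT replicate 1; -0.0377 without KO replicate 3) to 0.0692, Atp8a1 from -0.0448 (without WT replicate 3; -0.0412 without KO replicate 3) to 0.135, and Tec from -0.194 to 0.0206 (without KO replicate 1). Kctd8 in EG1 WT against OdG WT ran from -0.361 to 0.181 (without EG1 WT replicate 3). Atp10d in EG1 KO against the OdG KO lines ran from -0.0121 (without EG1 KO replicate 3) to 0.0956, and was -0.0077 with the replicate block. The causes were not tested.

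Same-numbered libraries did not deviate together (r from -0.05 to 0.03 over 9 pairs), which gives no sign of pairing but cannot exclude it. With 2 libraries a group, both same-numbered pairs of any 2 OdG groups give the same r, so the 9 are not independent. With the replicate block, 906 genes were called in EG1 (1074 without) and 5334 between the KO lines (5454 without). With 2 or 3 libraries a group, and 0 to 3 counts for 6 of the 9 genes in each OdG WT library, ratios to OdG WT rest on few reads.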
